A study of Mus musculus with 2 samples.

Results

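The cytosolic ribosomal protein genes were read in 2 single-cell RNA libraries of the embryonic mouse eye. They were taken by symbol: Rps or Rpl followed by a number and at most a short suffix, together with Rpsa, Rplp0, Rplp1 and Rplp2, and without pseudogene names or the Rps6k kinases. The rule found 83 of 32285 genes, of which 32 encode proteins of the small subunit and 51 proteins of the large subunit, and each had at least 1 UMI (unique molecular identifier, a count of a captured RNA molecule) in both libraries.

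The libraries hold TdTomato-positive cells sorted from dissociated optic cups of α-Cre;TdTomato embryos at day E13.5, 1 library titled pigmented and 1 titled albino, each from 3 pooled embryos. α-Cre is known as a driver of recombination in the peripheral retina, where the ciliary margin zone (CMZ) forms, and TdTomato is the red reporter that recombined cells carry. The strain given for the pigmented library is Tyrc2j, which is also what a tyrosinase allele found in albino mice is called, and the strain given for the albino library is Swizz ICR; the titles were followed. Strain, embryo pool and library go together with pigmentation and cannot be told apart. Neither group has a replicate, so no test was made, and every interval below is an exact 95% interval that covers counting error only.

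The deposited matrices had 6089 barcodes and 69965728 UMIs in the pigmented library and 3676 barcodes and 46271969 UMIs in the albino one. After filtering 5711 and 3474 cells remained, with medians of 10319 and 11194 UMIs. The libraries share 8 barcodes, 6 of them in kept cells. Cells with Xist and no Y-linked UMI made up 29.3% of pigmented-library cells and 96.1% of albino-library cells, so the pools also differ in sex. Of 29 clusters, 23 took a class name from marker genes, and the clustering did not use ribosomal protein genes. The retinal classes are RPC-like (retinal progenitor cells), CMZ-like, neurogenic-like (led by Atoh7, Neurog2 and Dll1), RGC-like (retinal ganglion cells, led by Isl1, Nefm, Elavl4 and Sncg), photoreceptor-like (led by Crx, Otx2 and Neurod4) and amacrine or horizontal-like (led by Ptf1a and Tfap2b). The larger photoreceptor-like cluster had 5 photoreceptor markers among its 10 leading genes, and also Ptf1a. A mesenchyme-like class (led by Col1a1, Col3a1 and Twist1) shows that the sort also held cells from outside the retina.

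A cytosolic ribosome is built from a small 40S and a large 60S subunit, and each holds ribosomal RNA and a near-fixed set of proteins, in most cases 1 copy of each. Many of their messenger RNAs carry a terminal oligopyrimidine (TOP) tract, a C followed by a run of C and T at the very start, through which growth signals are known to set their translation. Ribosome production is known to be high in dividing progenitors. The counts report messenger RNA, not ribosomes or translation.

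Ribosomal protein RNA took up more of the transcriptome in progenitors than in neurons. Over all kept cells the 83 genes held 23.7% of UMIs in the pigmented library and 23.2% in the albino library. The share was 27.8% and 28.3% in CMZ-like cells and 25.9% and 27.3% in RPC-like cells. In neurogenic-like cells it was 20.5% and 20.7%, in photoreceptor-like cells 18.6% and 19.2%, and in amacrine or horizontal-like cells 17.1% and 17.4%. RGC-like cells had the lowest share of these classes, 14.97% and 14.72%. The order of the 6 retinal classes was the same in both libraries. Mesenchyme-like cells stood beside the progenitors, with 25.8% and 25.4%.

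The separation was also seen cell by cell. The middle 50% of RGC-like cells lay between 12.9% and 17.2% in the pigmented library and between 12.7% and 16.5% in the albino one. The middle 50% of RPC-like cells lay between 22.6% and 28.4%, and between 24.5% and 29.7%, so these ranges did not overlap in either library. The ratio of the RGC-like share to the RPC-like share was 0.577 (interval 0.576 to 0.578) in the pigmented and 0.539 (0.538 to 0.540) in the albino library. For neurogenic-like cells it was 0.792 and 0.759, for photoreceptor-like cells 0.717 and 0.704, and for CMZ-like cells 1.07 and 1.04.

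RGC-like cells were deeper than RPC-like cells, with medians of 14291 against 9712.5 UMIs (pigmented) and 14475 against 10358.5 (albino). Their median number of ribosomal protein UMIs per cell was lower, 2114 against 2443 and 2111 against 2805.5. Their median number of UMIs of all other genes per cell was 1.68 and 1.64 times as high. The lower share stood beside more UMIs of other genes and fewer ribosomal protein UMIs per cell. Among cells with 8000 to 16000 UMIs only, a restriction chosen after the data were seen, the log2 of the RGC-like over RPC-like share ratio was -0.74 and -0.85, against -0.79 and -0.89 over all cells.

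Clusters within a class differed too. Among RPC-like clusters, the one led by the mitosis genes Ube2c, Cenpf and Plk1 had 23.91% and 24.96%, and the one led by S-phase histone genes had 24.5% and 26.3%. The RPC-like cluster led by Vax2os, Smoc1 and Aldh1a3 had 28.0% and 29.6%, and another cluster with the mitosis genes Ccnb2, Knstrn and Cenpa among its leading genes had 27.9% and 29.2%, so clusters led by mitosis genes lay at both ends. The neurogenic-like clusters ranged from 25.7% and 26.5% in the cluster led by Cck, Gadd45g and Mybl1 to 17.4% and 17.9% in the one led by Onecut1 and Otx2. The RGC-like cluster led by Sst, Sncg and Nrn1 had 13.0% and 13.3%, below the 16.4% and 16.0% of the cluster led by Igfbpl1 and Elavl4.

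**Figure D1:**
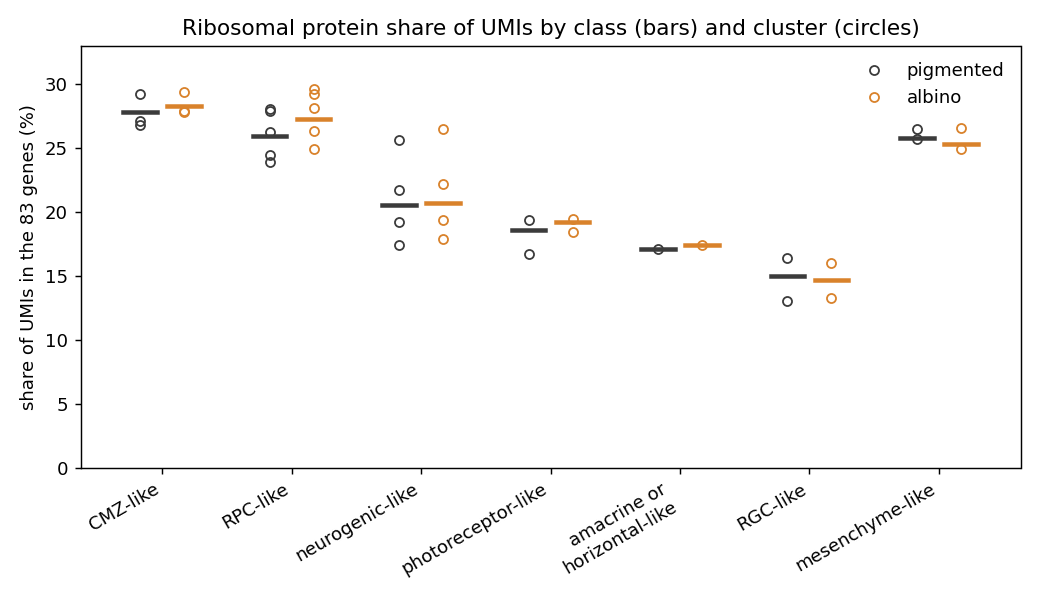
Share of UMIs in the 83 ribosomal protein genes (y axis, percent) in 7 classes (x axis) of the pigmented and the albino library. Bars are the share over all cells of a class and open circles the share in each of its clusters; the bars run from 27.8% and 28.3% in CMZ-like cells to 14.97% and 14.72% in RGC-like cells.

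The shortfall in RGC-like cells was spread over nearly the whole family. Levels are given as CPM, the UMIs of a gene scaled to a class total of 1000000, and a gene was counted as measured where the cells compared held at least 50 UMIs over both libraries. Of the 83 members 80 were measured, and Rpl10l, Rpl39l and Rpl3l were not. All 80 were lower in RGC-like than in RPC-like cells in both libraries, and 78 were lower by at least 20% in both, the threshold used below (20% lower or 25% higher, the same fold in either direction). Of the 1548 genes at 100 CPM or more over all cells, 36.2% were past that threshold and 49.9% were lower at all; of all 12877 genes measured, 39.8% were past it. The median member had a log2 ratio of -0.75 in the pigmented and -0.88 in the albino library, against -0.05 and -0.03 for all genes at 100 CPM or more. All 32 small-subunit genes and 46 of 48 large-subunit genes were past the threshold, with medians of -0.80 and -0.89, and of -0.73 and -0.83. Across the 80 genes the ratios of the 2 libraries, which share no cells, had a Pearson r of 0.981, and the largest gap between libraries was 0.16, for Rplp0. Genes are not independent replicates, and the correlation is a description.

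The genes farthest below the median member were Rpl22l1, Rps2, Rpl12, Rplp0 and Rpsa. Rpl22l1, the paralog of the large-subunit gene Rpl22, stood at 604 CPM in RGC-like and 1650.0 CPM in RPC-like cells of the pigmented library, and in the albino library at 687 and 1826 CPM. Its ratio was 0.366 (0.355 to 0.377) and 0.376 (0.366 to 0.386). Rps2, a small-subunit protein near the messenger RNA entry, stood at 1997 against 4845 CPM and at 1915 against 5056 CPM, with ratios of 0.412 and 0.379. Rpl12, a protein at the base of the stalk that recruits elongation factors, stood at 434 against 1159.9 CPM and at 433 against 1123 CPM, with ratios of 0.374 and 0.386. Rplp0, the core of that stalk, had ratios of 0.429 and 0.383, and Rpsa, also known as a laminin-binding protein, had ratios of 0.435 and 0.396.

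In all 5 genes the RGC-like level was under 45% of the RPC-like level, and in both libraries. Rplp1, an acidic protein of the same stalk, was also low, with log2 ratios of -1.12 and -1.14, and Rplp2, its partner, lay at the family's median in the pigmented library, with -0.75 and -0.82. The stalk genes Rplp0, Rplp1, Rplp2 and Rpl12 had a median of -1.17 and -1.26; this set of 4 was formed after its values were seen.

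The other end of the family was held by Rpl27, Rpl23a, Rpl10, Rpl35 and Rpl34, all of the large subunit. Rpl27 stood at 1309 against 1424 CPM in the pigmented and in the albino one at 1312 against 1457 CPM. Its ratios were 0.919 (0.899 to 0.940) and 0.901 (0.881 to 0.921). It was the member closest to equal levels. Rpl23a, a protein at the exit of the nascent chain, had ratios of 0.826 and 0.776, and these 2 genes were those that missed the threshold in at least 1 library. Rpl10, an X-linked gene whose product joins the large subunit late, had ratios of 0.765 and 0.754. Ribosomal protein genes have many processed copies in the genome, and the sources used here do not say how reads that match several genes were counted. Of the 90-base windows in the last 500 bases of the transcript, 78.3% were shared with another annotated gene for Rpl27. This share was 87.6% for Rpl23a, 100% for Rpl10, 68.1% for Rpl35 and 10.2% for Rpl34. Among the low genes it was 76.9% for Rps2, 49.6% for Rpl22l1, 19.7% for Rplp0 and none for Rpl12 and Rpsa. The part of shared sequence in these differences was not tested. Over the 80 members, the share of such windows and the level over all cells had a Spearman rho of -0.11.

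**Figure D2:**
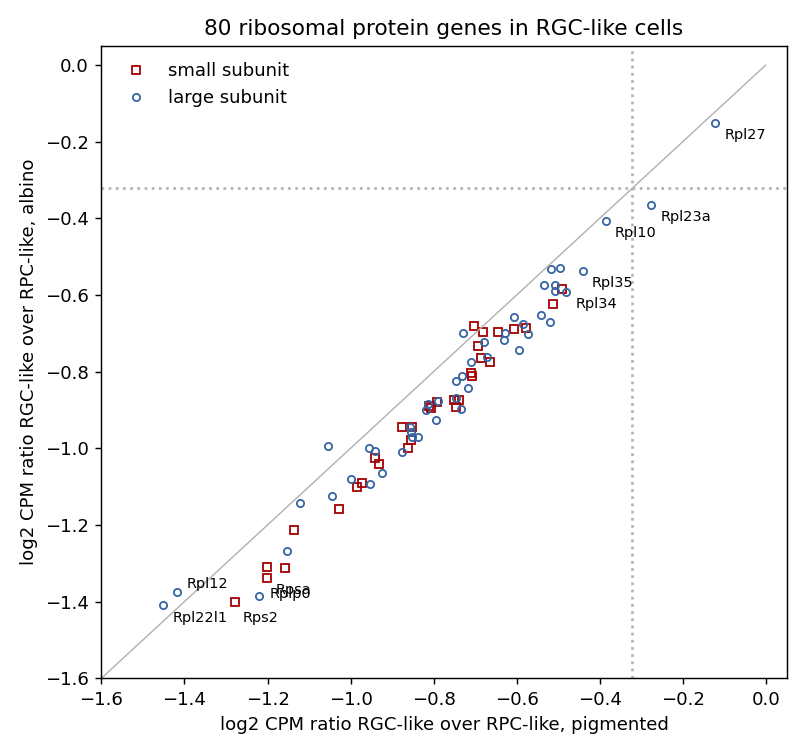
Log2 CPM ratio of RGC-like over RPC-like cells in the pigmented (x axis) and albino library (y axis), 1 point for each of 80 genes (squares, small subunit; circles, large subunit). The diagonal marks equal ratios and the dotted lines 20% lower; every point lies below 0 on both axes, from Rpl22l1 (-1.45 and -1.41) to Rpl27 (-0.12 and -0.15).

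Annotated starts of these 10 genes were looked up and searched for letters that match a TOP tract. The RefSeq promoter table (GRCm38.p6) matched 63 of the 83 members. A tract was taken as a C followed by at least 4 bases that are each C or T, beginning within 10 bases of the annotated start on the gene's strand. It is in capitals below, in windows of 15 bases to each side of the start. For the first Rpl34 start listed, the capitals begin at the 10-base limit, and the run of C and T extends upstream of them. The table holds 9 of the 10 genes; Rpl34 has 2 annotated starts.
Rpl22l1 (chr3:28805493-28805522, plus strand): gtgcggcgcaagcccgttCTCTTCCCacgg
Rps2 (chr17:24720048-24720077, plus strand): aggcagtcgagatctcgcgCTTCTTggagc
Rpl12 (chr2:32961697-32961726, plus strand): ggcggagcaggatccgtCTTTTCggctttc
Rplp0 (chr5:115559452-115559481, plus strand): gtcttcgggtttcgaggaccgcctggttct
Rpsa (chr9:120127751-120127780, plus strand): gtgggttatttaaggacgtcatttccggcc
Rpl27 (chr11:101442230-101442259, plus strand): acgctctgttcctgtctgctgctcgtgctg
Rpl10 (chrX:74270801-74270830, plus strand): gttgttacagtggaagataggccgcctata
Rpl35 (chr2:39005117-39005146, minus strand): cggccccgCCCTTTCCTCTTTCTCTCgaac
Rpl34 (chr3:130730323-130730352, minus strand): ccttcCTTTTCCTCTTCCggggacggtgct
Rpl34, other start (chr3:130730384-130730413, minus strand): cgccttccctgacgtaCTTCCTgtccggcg

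Tracts stand in Rpl22l1, Rps2 and Rpl12 among the low genes and in Rpl35 and Rpl34 among the high ones. In all, 39 of the 63 members with a promoter had a tract (61.9%), against 34.4% of the 27025 genes of the table, 44.9% of mitochondrial ribosomal protein genes and 28% of ribosome biogenesis genes. A match is a description of letters near an annotated start, not a measured site. Among members measured in the RGC-like contrast, 36 with a tract had a median log2 ratio of -0.80 and -0.89, and 24 without one had -0.74 and -0.86.

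Neurogenic-like cells stood between progenitors and neurons. Of 80 members, 79 were lower than in RPC-like cells in both libraries, and 46 were lower by at least 20%, against 14.1% of genes at 100 CPM or more and 27.4% of all genes measured; 39.8% of genes at 100 CPM or more were lower at all. The median member had a log2 ratio of -0.34 and -0.40. The count past the threshold was 22 when every marker list could rival in naming and 70 when levels were scaled to UMIs outside ribosomal protein and mitochondrial genes. Rpl22l1 was again lowest, with 1032 against 1650.0 CPM and 1084 against 1826 CPM, and Rps2, Rpl12, Rpl17 and Rpl10 followed. On the CPM scale Rps27l was the only member above its RPC-like level in both libraries, with 689 against 647 CPM (ratio 1.06, 1.03 to 1.10) and 682 against 663 CPM (1.03, 0.986 to 1.07), so in the albino library the interval includes equal levels. Scaling to UMIs outside ribosomal protein and mitochondrial genes moved every neurogenic-like log2 ratio by -0.11 and -0.13, which took Rps27l below its RPC-like level. Rpl27, Rps29 and Rpl37a also lay above the median member, at log2 ratios between -0.24 and -0.07.

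In photoreceptor-like cells all 80 members were lower than in RPC-like cells, 64 of them by at least 20%, against 24.9% of genes at 100 CPM or more and 23.8% of all genes measured; 41.6% of genes at 100 CPM or more were lower at all. The medians were -0.45 and -0.47, and with median-of-ratios scaling, which moved every photoreceptor-like log2 ratio by -0.20 and -0.25, they were -0.65 and -0.72. Rpl22l1 stood at 698 and 773 CPM. Its ratios were 0.423 (0.404 to 0.442) and 0.423 (0.400 to 0.447). Rpl12, Rplp1, Rps12 and Rps2 were next, and Rpl27, Rps9, Rpl7a and Rpl19 were among those closest to the RPC-like level. Rplp1 had log2 ratios of -0.97 and -0.92, and Rps9, a small-subunit assembly protein, -0.10 and -0.13. The contrasts of neurogenic-like, photoreceptor-like and RGC-like cells share the RPC-like cells as their base, so that Rpl22l1 and Rpl12 recur at the low end and Rpl27 at the high end is not independent.

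As a class, CMZ-like cells had slightly more ribosomal protein RNA than RPC-like cells, but their clusters overlapped in share. CMZ-like clusters ran from 26.8% to 29.3% in the pigmented and from 27.8% to 29.4% in the albino library. RPC-like clusters ran from 23.91% to 28.0% and from 24.96% to 29.6%. Of 80 members, 61 were higher in CMZ-like cells in both libraries and 2 were lower, where 39.7% of genes at 100 CPM or more were higher. None was at least 25% higher in both libraries, against 2.97% of those genes and 8.75% of all genes measured. The medians were 0.10 and 0.06. Rpl41, the smallest ribosomal protein and the most abundant member, stood at 8980 against 7153 CPM and at 9025 against 7328 CPM, a log2 ratio of 0.33 and 0.30. Rpl31, Rps2 and Rpl7a were also among the highest, with Rpl31 at 0.26 and 0.24. Rpl10, at the low end, stood below its RPC-like level in both libraries (-0.08 and -0.15), as did Rps27 (-0.01 and -0.06). CMZ-like cells were deeper than RPC-like cells, with medians of 14458.5 and 13923 UMIs.

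Mesenchyme-like cells had nearly the RPC-like level of the family. Of 81 members measured there, 43 were lower and 18 higher in both libraries, and 50.2% of genes at 100 CPM or more were lower. None was lower by 20% in both libraries, against 22.4% of those genes and 23.4% of all genes measured. The medians were -0.01 and -0.10, and over the alternatives the pigmented one ran from -0.06 to 0.06. Rpl12 (-0.28 and -0.38), Rpl17, Rps6, Rpl32 and Rpl26 were lowest, and Rpl41 (0.36 and 0.26), Rpl27, Rpl24 and Rpl34 were among the highest, apart from Rpl39l.

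**Figure D3:**
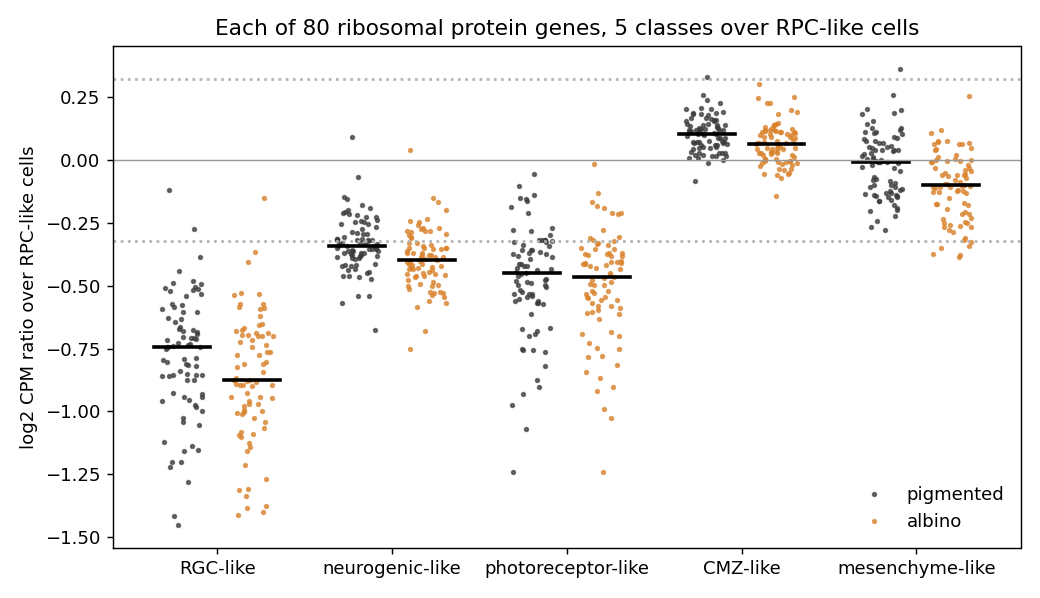
Log2 CPM ratio over RPC-like cells (y axis) of 80 genes in 5 classes (x axis), 1 point per gene and library, with black bars at the median; Rpl39l is left out because it was near 0 in RPC-like cells. Dotted lines mark 20% lower and 25% higher; the points of RGC-like cells are the lowest, with medians of -0.75 and -0.88, and those of CMZ-like cells lie mostly above 0.

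Several members have a paralog that can take their place in the ribosome, and the balance within pairs differed by class. Rpl22l1 held 46.7% of the Rpl22 and Rpl22l1 UMIs in RPC-like cells of the pigmented library and 48.4% in the albino library, and 47.5% and 48.9% in CMZ-like cells. It held 40.5% and 41.9% in neurogenic-like cells, 36.4% and 40.9% in RGC-like cells, and 31.55% and 32.98% in photoreceptor-like cells. In amacrine or horizontal-like cells it held 24.7% (22.8 to 26.7) and 24.6% (22.1 to 27.3), the lowest of these classes. Rpl22 itself kept to the family's ratio, with log2 ratios of -0.84 and -0.97 in RGC-like cells. No window of Rpl22 was shared with another gene.

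RGC-like clusters were split in this balance. The cluster led by Igfbpl1 and Elavl4 had 32.6% and 36.6% Rpl22l1, and the cluster led by Sst, Sncg and Nrn1, which had the lowest ribosomal protein share, had 42.9% and 46.6%. An unnamed cluster led by Sp8, Dlx1 and Pou4f2 had 25.9% and 28.1%. These clusters were picked after their values were seen. In RGC-like cells with 8000 to 16000 UMIs the share was 32.1% and 36.9%; the part of cluster and depth in this was not tested.

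Rps27l is a paralog of Rps27 and is known as a p53 target. Among the 7 classes compared, its share of the pair was highest in neurogenic-like cells, at 19.2% and 18.1%. RPC-like cells had 15.1% and 14.4%. The neurogenic-like clusters differed. The one led by Onecut1 and Otx2 had 24.0% and 21.7%, and the one led by Cck, Gadd45g and Mybl1 had 16.4% and 13.7%. RPC-like clusters reached 17.1% and 17.0%. Over the 7 classes, Rps27l was lowest in amacrine or horizontal-like cells, with 11.8% and 12.3%. Rpl7l1, a relative of Rpl7 known from ribosome assembly, was a minor member, with 4.87% and 4.46% of its pair in RPC-like cells and 3.61% and 3.56% in RGC-like cells.

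**Figure D4:**
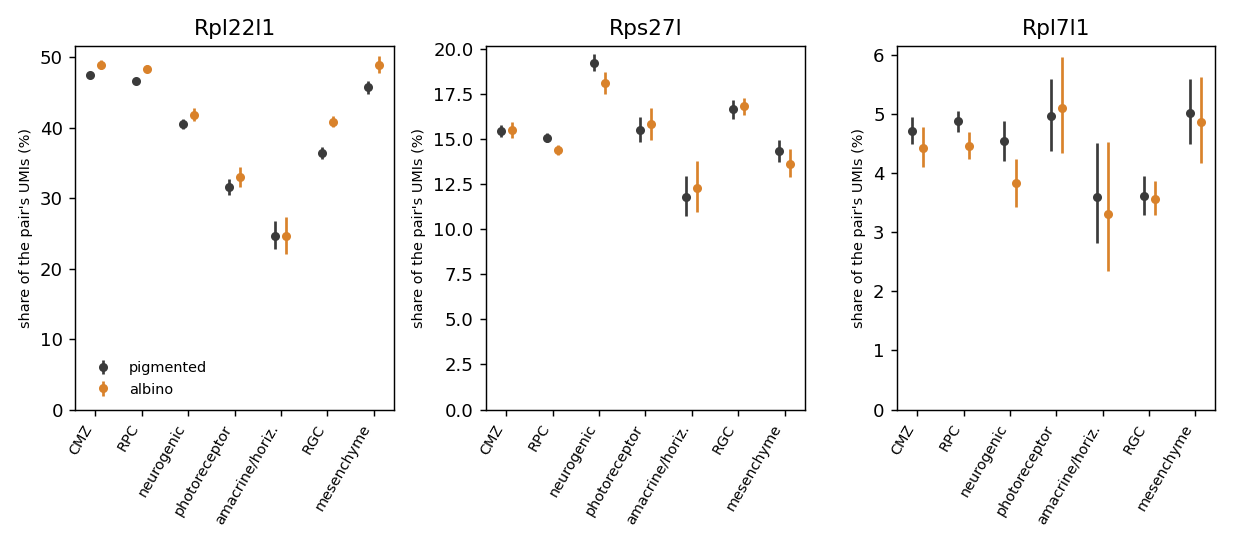
Share of a pair's UMIs held by Rpl22l1 (of Rpl22 and Rpl22l1), Rps27l (of Rps27 and Rps27l) and Rpl7l1 (of Rpl7 and Rpl7l1) in percent (y axis) in 7 classes (x axis), with exact 95% intervals for counting error. Rpl22l1 runs from about equal parts in CMZ-like cells (47.5% and 48.9%) to 24.7% and 24.6% in amacrine or horizontal-like cells, and Rps27l peaks in neurogenic-like cells.

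Rpl39l, a paralog of Rpl39 known for its high level in testis, was found almost only in mesenchyme-like cells. They held 72 of its 78 UMIs in the pigmented library and 76 of 78 in the albino library, at 24.5 and 45.3 CPM. UMIs were found in 32 of 212 and 22 of 126 mesenchyme-like cells, and 1 cell held up to 8. In the cluster led by Col3a1, Dlk1 and Prrx1, 16.0% (11.1 to 22.1) and 18% (11.0 to 26.9) of cells had a UMI. RPC-like cells had 2 UMIs over 2096 cells in the pigmented library, a ratio of 276 (73.7 to 2324), and none over 1110 cells in the albino library, where the level was at least 197-fold higher against a floor of 3 counts over the class. Photoreceptor-like, CMZ-like and neurogenic-like cells had none in either library. No window of Rpl39l was shared with another gene. Its exact place is chromosome 16, 10170226 to 10174911, plus strand (mm10). The germline paralogs Rpl10l (7 and 4 UMIs) and the muscle paralog Rpl3l (1 and 3 UMIs) were near the floor everywhere.

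Other genes of the translation machinery did not all go with the family. Their lists were chosen with earlier results known. Their counts of lower genes stand beside the same shares of all genes as the family's. Of genes at 100 CPM or more, 49.9% were lower in RGC-like cells in both libraries, and 36.2% were lower past the threshold. In RGC-like cells all 14 elongation and other TOP genes were lower than in RPC-like cells in both libraries, 9 past the threshold, with medians of -0.44 and -0.52. Eef1d, an exchange factor subunit of elongation factor 1, had a lower log2 ratio than any measured ribosomal protein gene, -2.28 and -2.35. It stood at 90.9 against 441 CPM and at 86.4 against 441 CPM. Pabpc1, the poly(A)-binding protein, had log2 ratios of -1.36 and -1.55, and Npm1, a nucleolar chaperone, -1.31 and -1.36. The partners Fau and Rack1 were lower, with Rack1 at -0.73 and -0.71. Non-coding TOP host genes were lower in 6 of 6 cases, and Snhg1 had -1.46 and -1.45 and Gas5 -1.12 and -1.14.

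Ribosome biogenesis genes were lower in 25 of 28 cases and past the threshold in 23, with medians of -0.83 and -0.79. Gar1 and Dkc1 had log2 ratios of -2.04 and -1.96, and of -1.75 and -1.82. Rrn3, the initiation factor of RNA polymerase I, went the other way, with 69.3 against 22.5 CPM and 76.1 against 22.4 CPM. Initiation factors were mixed, with 8 lower and 6 higher of 17 and medians of -0.08 and -0.07. Eif4a1, the helicase of the cap complex, had 0.61 and 0.60, and Eif4ebp1, a repressor of cap-dependent translation, had -1.58 and -1.67. Of 11 regulators 4 were lower and 6 higher, and Mycn stood at 107 against 75.4 CPM and at 102 against 68.8 CPM. Mitochondrial ribosomal protein genes were lower in 51 and higher in 24 of 78 cases and past the threshold downward in 25, a share below that of all genes, with medians of -0.21 and -0.20. Proteasome genes were higher in 27 and lower in 4 of 35 measured, with medians of 0.26 and 0.29. For comparison with the counts of higher genes in these lists, 706 of the 1548 genes at 100 CPM or more were higher in both libraries. Scaling to UMIs outside ribosomal protein and mitochondrial genes moved every RGC-like log2 ratio by -0.21 and -0.23, which left the proteasome medians at 0.05 and 0.05 and the regulator medians at -0.16 and -0.09, against 0.04 and 0.15 before. With the same scaling the medians were -0.29 and -0.31 for initiation factors and -0.42 and -0.43 for mitochondrial ribosomal protein genes.

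In mesenchyme-like cells, where the ribosomal proteins were near RPC-like levels, 24 of 28 biogenesis genes were lower, 15 past the threshold. Of genes at 100 CPM or more, 50.2% were lower there and 22.4% past the threshold. The biogenesis medians were -0.45 and -0.39. Gar1 stood at 69.2 against 139 CPM and at 56.0 against 132 CPM. In CMZ-like cells 13 biogenesis genes were higher and 7 lower, with medians of 0.02 and 0.07. Of genes at 100 CPM or more, 39.7% were higher in CMZ-like cells in both libraries.

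Over 14 points (7 classes in 2 libraries) the genes outside the family whose level was most like the family's summed share were Lage3, with a Pearson r of 0.990, Mrpl17, Eef1d, Psmg4, Fau, Id3, Tut4, Siva1, Pabpc1 and Npm1, with 0.957. They were picked from 1469 genes at 100 CPM or more. Within the family 74 members had r above 0.9 with the sum that contains them, and Rpl27 (0.726), Rpl10 (0.778) and Rps27l (0.838) had the lowest values of the members measured in all points. The points share libraries and total scaling.

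Between the libraries the family as a whole differed little. The share was 0.982 times as high in the albino as in the pigmented library over all cells, 1.05 times in RPC-like, 1.02 in CMZ-like, 1.01 in neurogenic-like and 0.983 in RGC-like cells. The RGC-like class held 19.8% of cells in the albino and 9.65% in the pigmented library. With the albino class shares weighted by the pigmented class make-up the albino share was 24.2%, above the pigmented 23.7%.

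Over all cells 22 of 81 members were higher in the albino library, against 44.8% of genes at 100 CPM or more, and 1 member, Rpl39l, was past the threshold, against 5.23% of those genes. Rpl39l had only 78 UMIs in each library, in 38 pigmented-library and 24 albino-library cells, at 1.19 and 1.73 CPM. In RPC-like cells 66 of 80 were higher (40.4% of genes at 100 CPM or more), with a median log2 ratio of 0.06, and none was past the threshold (2.2% of those genes). In CMZ-like cells 56 of 80 were higher (46.9%; 39 in cells with Xist and no Y-linked UMI) and none past the threshold (2.59%). In neurogenic-like cells 41 of 80 were higher (44.7%) and none past the threshold (1.16%). In RGC-like cells 12 of 80 were higher (44.9%) and none past the threshold (2.39%), with a median of -0.03. The count in RGC-like cells turned with the scaling and the cells used, from 3 with doublets kept to 26 with median-of-ratios scaling, and the count over all cells became 47 with that scaling.

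A few members kept their side in all 4 classes. Rpl35, which docks the signal recognition particle at the exit tunnel, was higher in albino cells, with 3309 against 2944 CPM in RPC-like, 3369 against 3130.3 CPM in CMZ-like, 2634 against 2535 CPM in neurogenic-like and 2281 against 2169 CPM in RGC-like cells. Its RPC-like ratio was 1.12 (1.11 to 1.14). Rpl22l1 was also higher in all 4, with ratios of 1.11, 1.08, 1.05 and 1.14 in that order. Rps6, the substrate of S6 kinase, was lower, with ratios of 0.968, 0.951, 0.931 and 0.935, Rps25 had 0.969, 0.945, 0.933 and 0.897, and Rplp1 had 0.965, 0.940, 0.957 and 0.952. All these differences were below the threshold, and no replicate shows how far 2 pools of 1 strain would differ. Over all cells, Rpl39l, Rpl35, Rpl11 and Rps24 were among the highest and Rplp1, Rps12, Rpl7l1 and Rpl12 among the lowest in albino over pigmented; Rpl12 was at 0.892 over all cells and at 1.02 in CMZ-like and 0.998 in RGC-like cells.

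**Figure D5:**
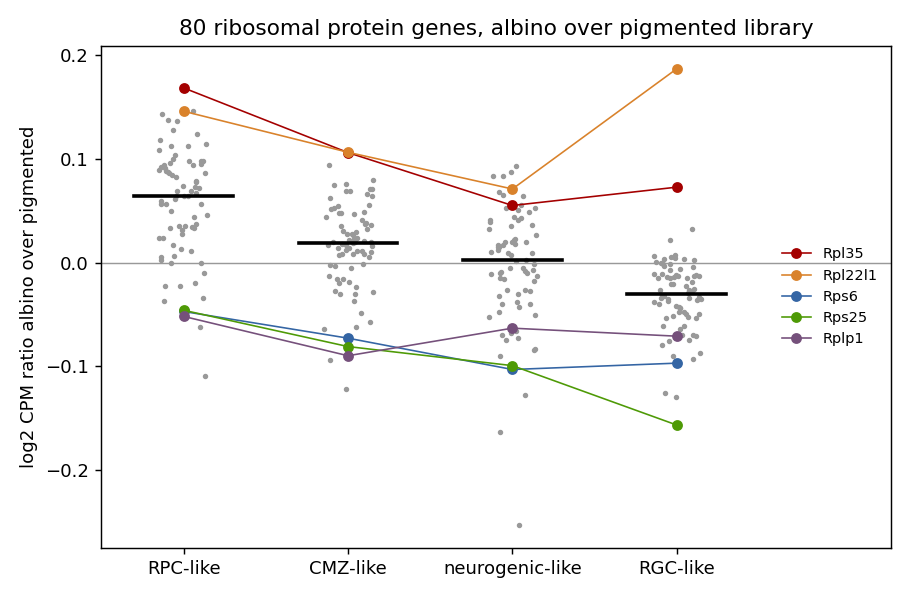
Log2 CPM ratio of the albino over the pigmented library (y axis) of 80 genes in 4 classes (x axis), with black bars at the median. Coloured points, joined by lines to follow a gene, are 5 members whose intervals lay on the same side of equal levels in all 4 classes; Rpl35 and Rpl22l1 are above 0 and Rps6, Rps25 and Rplp1 below.

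The pools differ in sex, and 4 members are X-linked: Rps4x, Rpl10, Rpl39 and Rpl36a. Within pigmented RPC-like cells, 661 cells with Xist and no Y-linked UMI were set against 937 cells with Y-linked UMIs and no Xist. The ratios were 0.972 (0.958 to 0.986) for Rps4x, 0.962 (0.938 to 0.986) for Rpl10, 0.956 (0.943 to 0.970) for Rpl39 and 0.986 (0.965 to 1.01) for Rpl36a, against 0.982 (0.980 to 0.984) for the family as a whole. None of the 4 was higher in Xist-positive cells.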

How the data were processed

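Raw UMI counts per gene and barcode were deposited by the authors; per the file headers they come from Cell Ranger 5.0.1, whereas version 2.1.1 and build mm10 stand in the submitters' processing notes. Barcodes start at 500 and 501 UMIs, so they were selected before deposit. The labels' protocols name a droplet 3' v2 kit, so a level does not scale with transcript length. Barcodes under 500 genes or over 10% mitochondrial UMIs were left out, as were Scrublet doublets (172 and 39 barcodes). The 2000 variable genes, without ribosomal protein, mitochondrial, haemoglobin, related-list and sex-linked marker genes, gave 30 components, 15 neighbours and Leiden clusters at resolution 1.0 (Python 3.11.15, NumPy 2.4.6, SciPy 1.17.1, pandas 2.3.3, Scanpy 1.11.5, scikit-learn 1.9.0, leidenalg 0.10.2, matplotlib 3.10.9), with no batch correction. Clusters were named by the marker list whose mean log2 fold over other cells (pseudocount 10 CPM) was highest, if that was at least 0.3 and led the next list by 0.3, with at least 3 markers in 10% of cells and no other class ahead among the 10 leading genes. That only classes with 3 detected markers count as rivals was set after the clusters were seen.

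UMIs were summed per class and library. Ratios have conditional exact intervals, checked on counts simulated with counting error only. Shares have Clopper-Pearson intervals. Log2 ratios add 1 UMI. The named genes are the paralogs, the 5 members farthest above and below the median member in each contrast (at least 50 UMIs in each sum, same side in both libraries), the 5 highest and lowest between libraries, those on 1 side in all 4 classes, the X-linked members and up to 4 genes of each related list; a few genes that this rule names are not reported here. The members and lists were chosen with earlier results of these data known. Promoters are RefSeq (GRCm38.p6) and copies were searched in GENCODE transcripts of the same build. Clusters without a name, RPE-like, immune-like and surface ectoderm-like cells entered the totals only.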

Additional observations from a re-analysis of the deposited data

Results flagged for a closer look

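Features with ribosomal protein names outside the rule also held UMIs above a floor of 3 counts in both libraries. Rpl36al, an expressed relative of Rpl36a, had 881 CPM over all pigmented-library cells and 885 CPM over all albino-library cells, 52.0% and 55.7% of the level of Rpl36a. Rps27rt, a retrogene that shares sequence with Rps27, stood at 51.6 and 43.4 CPM, Rpl9-ps6 at 32.46 and 29.97 CPM, Rpl36a-ps1 at 26.9 and 24.4 CPM, and Rpl10-ps3 at 14.3 and 12.8 CPM. Apart from Rpl36al, each had under 2% of the level of the gene it is named after. They enter no comparison above.

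In CMZ-like over RPC-like cells the small-subunit genes Rps7 and Rps10 lay on opposite sides of equal levels in the libraries. Rps7 had a log2 ratio of 0.017 in the pigmented and -0.058 in the albino library, and Rps10 had 0.021 and -0.072. The difference was not tested.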

How the results depend on the processing

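No paired analysis was possible because each group holds 1 library and the labels give no shared replicate numbers. All 11 alternatives run for this result (of 15) kept the RGC-like share of UMIs below the RPC-like share in both libraries. Against a main log2 ratio of -0.79 (pigmented) and -0.89 (albino) it was -0.63 and -0.75 with doublets kept, -0.73 and -0.85 with all classes as rivals in naming, -0.74 and -0.85 in cells with 8000 to 16000 UMIs, -0.76 and -0.87 at Leiden resolution 1.5, -0.79 and -0.88 at 5% mitochondrial UMIs, -0.80 and -0.89 at 1000 genes, -0.79 and -0.89 at naming margin 0, and in the pigmented library -0.76 with each cell weighted equally and -0.78 in cells with Xist and no Y-linked UMI. The cause was not tested.

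The share over all cells moved by less than 1 percentage point. It was 23.5% and 23.2% at 5% mitochondrial UMIs, 23.6% and 23.2% with doublets kept, 23.3% and 22.6% with each cell weighted equally, and 23.2% and 23.1% in cells with Xist and no Y-linked UMI. The number of neurogenic-like members past the threshold was 22 with all classes as rivals and 70 with levels scaled to UMIs outside ribosomal protein and mitochondrial genes.

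The Rpl22l1 share in RGC-like cells was 32.1% and 36.9% in cells with 8000 to 16000 UMIs, 39.0% and 41.7% with doublets kept, 35.20% and 39.97% with each cell weighted equally, and 35.4% in pigmented cells with Xist and no Y-linked UMI. In RPC-like cells it was 46.2% (pigmented, Leiden resolution 0.6), 47.1% (pigmented, Xist and no Y-linked UMI), 47.9% (albino, 8000 to 16000 UMIs) and 47.8% (albino, cells weighted equally).

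The least stable results were the counts of members higher in albino. In RGC-like cells, against 12, the count was 3 with doublets kept, 5 with cells weighted equally, 26 with median of ratios, 25 in cells with Xist and no Y-linked UMI, and 6 when scaled to UMIs outside ribosomal protein and mitochondrial genes. Over all cells, against 22, it was 5 in cells with 8000 to 16000 UMIs, 7 with cells weighted equally, 47 with median of ratios and 14 with the scaling outside ribosomal protein and mitochondrial genes. The median albino over pigmented log2 ratio turned to 0.0091 over all cells with median of ratios, and to -0.00079 in CMZ-like cells with Xist and no Y-linked UMI. Of 615 recomputed values for single genes and medians, 453 stayed within the main interval (for medians, the rank interval over members), 160 moved outside it and these 2 turned to the other side of 0. The pigmented mesenchyme-like over RPC-like median, near 0 throughout, also crossed it, between -0.06 and 0.06. The alternatives with cells of 8000 to 16000 UMIs and with all classes as rivals were chosen after seeing the data.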
